A study of Oryza sativa with 6 samples.

Results

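Abscisic acid (ABA) is the plant hormone of drought, seed dormancy and closure of leaf pores. It is made in plastids from carotenoids, and its level in a leaf is set by synthesis and by oxidative breakdown. Bound hormone lets PYR/PYL receptors hold back PP2C phosphatases, which frees SnRK2 kinases to activate bZIP transcription factors that bind ABA response elements in target promoters. The genes described here hold steps of this route. They are ABA1 (LOC4335984), for zeaxanthin epoxidase, ABA8OX1 (LOC9269675) and ABA8OX2 (LOC4345810), for cytochrome P450 enzymes that hydroxylate ABA, OsPYL11 (LOC4338104), for a receptor that the gene table also calls PYL5, and BZIP23 (LOC4330838), for a transcription factor also called ABF2. They were chosen by name, each has 1 probe set on the array, and they make up 5 of 17905 genes with a probe set. PP2C genes were left out.

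Rice (Oryza sativa) leaf blades were measured on 6 Affymetrix arrays. Of these, 3 were of the hygromycin-resistant Os-LBD37 overexpressor line RK16331-13, and 3 of a hygromycin-resistant empty vector control. Os-LBD37 is a LOB-domain transcription factor gene. All plants grew in hydroponic culture, and the 5th and 6th leaf blades were taken at a date set by the emergence of the 8th. The sources used here do not name the promoter of the transgene. The titles name 1 line for the overexpressor and none for the control, which is called the empty vector line here. The transgene and any other feature by which these groups differ therefore cannot be told apart. A probe set for Os-LBD37 itself was not analysed here. The labels call the hybridizations independent, without stating whether replicates came from separate plants, so p-values cover the spread between samples, which may be technical.

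Background was set on each array at the 95th percentile of 132 controls foreign to rice, and 50.9 to 55.4 percent of the rice probe sets exceeded it. Of 5 leaf blade marker genes 4 were above background on all arrays and 1 (RBCS1) on none; of 4 root, 6 seed and 6 flower and panicle markers, 2, 3 and 3 were. Among the markers of other organs LSI2, GLUA1, RAG1 and MADS58 were above background on no array, and MADS1 passed as lower in the overexpressor (limma adjusted p = 0.00794). The replicate 2 array of each line stood apart. CCA1, a clock gene of the morning, had intensities of 5241 and 18627 on the replicate 2 arrays of the empty vector line and the overexpressor, and 602.1 to 682.1 on the other arrays. OsPCL1, a clock gene of the evening, had 1401 and 1275 on the replicate 2 arrays and 16866 to 22354 on the others. Empty vector replicate 2 also had the highest log2 ratio of 3 prime to 5 prime actin probe sets, at 3.08 against 1.24 to 1.81 on the other arrays. This ratio rises as RNA integrity falls. In whole leaf blades, fewer cells of a type and less RNA per cell cannot be told apart.

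The comparison asks which transcripts differ between the overexpressor and the empty vector line. None of the 5 genes passed the test, and for each of them the arrays of the lines overlapped. Values are probe set intensities, and log2 changes are overexpressor minus empty vector on the scale log2(intensity + 16), with the standard error (SE) of the limma fit over all probe sets. A gene passed at a Benjamini-Hochberg adjusted p under 0.05 over genes. Over all genes 93 of 17905 passed, or 0.519 percent, and 14.2 percent had an unadjusted p under 0.05; among the 5 genes 0 had such a p. All 5 estimated changes lay above 0, as did 50.7 percent of all genes, but 2 of the 5 were within 0.1 of 0.

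**Figure D1:**
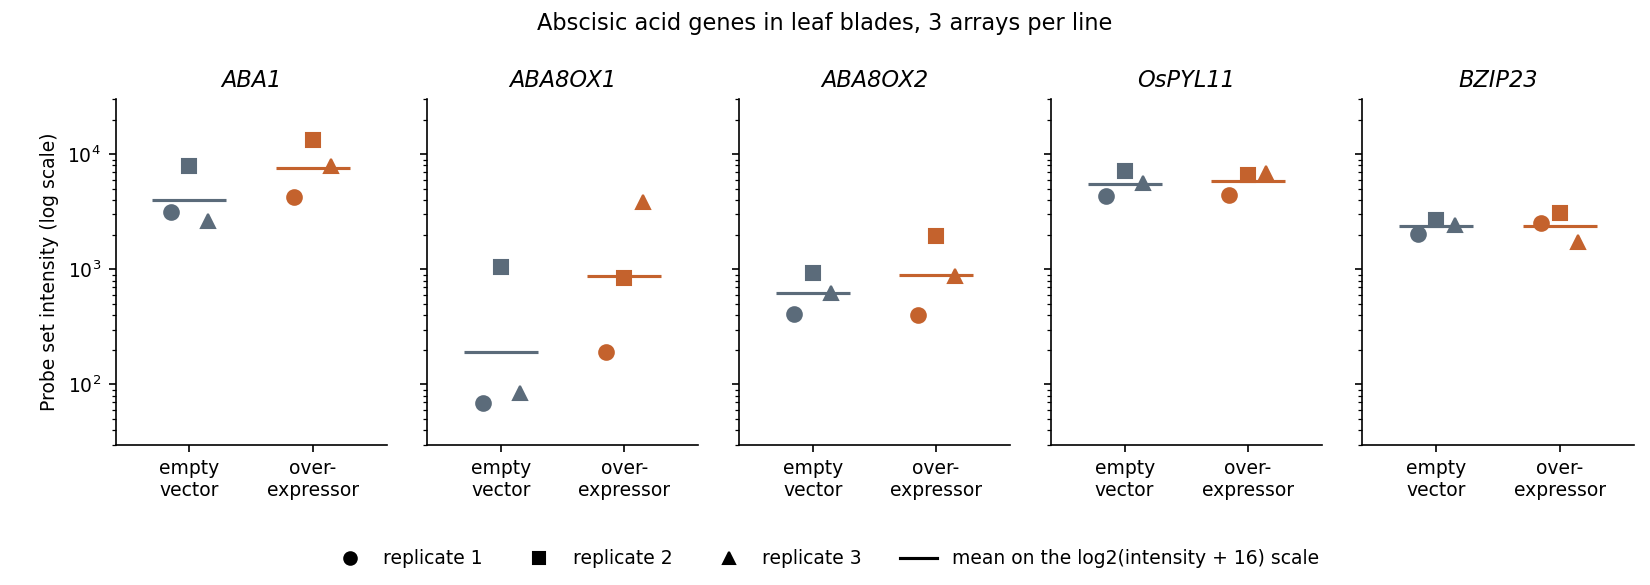
Probe set intensity (log axis) of the 5 abscisic acid genes on each of the 6 arrays; symbols give the replicate number and bars the mean per line on the log2(intensity + 16) scale. The lines overlap for every gene, ABA8OX1 runs from 68.9 to 3862 between arrays, and BZIP23 runs from 1719 to 3114.

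ABA1 encodes the enzyme that turns zeaxanthin into violaxanthin, a step that serves both ABA synthesis and the xanthophyll cycle of light protection. Its intensity was 3175, 7923 and 2630.1 on empty vector replicates 1, 2 and 3. On overexpressor replicates 1, 2 and 3 it was 4272, 13306 and 7884. The replicate 2 array was the highest of its line in both, and overexpressor replicate 3 reached the level of empty vector replicate 2. The means were 4576 ± 2912 (SD, n = 3) and 8487 ± 4547 (SD, n = 3). The log2 change was 0.92 ± 0.53 (SE) with an interval at 95% of -0.33 to 2.16 and did not pass (limma adjusted p = 0.511). This corresponds to 1.89-fold, with an interval of 0.795-fold to 4.48-fold.

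Within replicate numbers ABA1 kept 1 direction. The overexpressor exceeded the empty vector by 0.43, 0.75 and 1.58 on the log2 scale in numbers 1, 2 and 3. ABA1 was the only 1 of the 5 genes that was above in all 3 numbers, which holds for 22.6 percent of all genes. With the replicate number as a block, a pairing weakly based for numbers 1 and 3, the SE went from 0.53 to 0.27. ABA1 still did not pass (limma adjusted p = 0.166). With both replicate 2 arrays removed its log2 change was 1.00 ± 0.32 (limma adjusted p = 0.175). Over the alternatives run its estimate ranged from 0.52, without overexpressor replicate 2, to 1.40, without empty vector replicate 2, with adjusted p from 0.123 to 0.806.

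The ABA8OX genes encode ABA 8'-hydroxylases, which start the main route of ABA breakdown to phaseic acid. ABA8OX1 was the most uneven of the 5 genes. Its intensity was 68.9, 1050.0 and 84.3 on empty vector replicates 1, 2 and 3, all above background, which was 45.4, 31.4 and 28.6 there. On overexpressor replicates 1, 2 and 3 it was 191.6, 848.2 and 3862. In the empty vector line replicate 2 was the high array, while in the overexpressor replicate 3 was the high array and replicate 2 lay in the middle. The means were 401.1 ± 562 (SD, n = 3) and 1634 ± 1957 (SD, n = 3), with SDs above the means.

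The log2 change of ABA8OX1 was 2.09 ± 1.27 (SE) and did not pass (limma adjusted p = 0.538). Its interval ran from -0.90 to 5.07, or 0.537-fold to 33.6-fold. The difference was 1.29 in replicate 1, -0.30 in replicate 2 and 5.27 in replicate 3. With single arrays removed the estimate lay between 1.02, without overexpressor replicate 3, and 3.26, without empty vector replicate 2 (limma adjusted p = 0.799 and 0.27). Without both replicate 2 arrays it was 3.28 (limma adjusted p = 0.258). With the replicate block it did not pass either (limma adjusted p = 0.347).

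ABA8OX2 was measured by a probe set of a type that can cross-hybridize with related transcripts, so its values may include them. Its intensity was 407.9, 933.1 and 627 on empty vector replicates 1, 2 and 3. On overexpressor replicates 1, 2 and 3 it was 399, 1954 and 881.9. Replicate 2 was the highest array in both lines, and replicate 1 was the lowest in both and nearly level between them. The means were 656 ± 264 (SD, n = 3) and 1078 ± 796 (SD, n = 3). The log2 change was 0.50 ± 0.57 (SE; interval -0.84 to 1.84; limma adjusted p = 0.76). It turned to -0.06 without overexpressor replicate 2, so the sign of the estimate rested on that array. The gene table places ABA8OX2 close to TRAB1, for another bZIP factor of ABA signalling, with 2 genes between them. TRAB1 had a log2 change of 0.00 ± 0.21 (limma adjusted p = 0.997).

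OsPYL11, for an ABA receptor, varied little. Its intensity was 4319, 7104 and 5612 on empty vector replicates 1, 2 and 3. On overexpressor replicates 1, 2 and 3 it was 4475, 6553 and 6928. In both lines replicate 1 was the lowest array. The means of 5678 ± 1394 (SD, n = 3) and 5986 ± 1322 (SD, n = 3) differed by less than either SD. The log2 change was 0.08 ± 0.27 (SE; limma adjusted p = 0.936), with an interval of 0.678-fold to 1.65-fold. Its estimate turned to -0.10 without empty vector replicate 1 and to -0.04 without overexpressor replicate 3.

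BZIP23, for a bZIP factor that activates ABA-responsive genes in rice, had the narrowest range of the 5 in the empty vector line. Its intensity there was 2044, 2697 and 2419.9 in replicates 1, 2 and 3. On overexpressor replicates 1, 2 and 3 it was 2527, 3114 and 1719. Overexpressor replicate 3 was the lowest of the 6 arrays, whereas it was the highest for ABA8OX1. The means were 2387 ± 328 (SD, n = 3) and 2453 ± 700.3 (SD, n = 3). The log2 change was 0.01 ± 0.27 (SE; limma adjusted p = 0.994), with an interval of 0.651-fold to 1.55-fold. A rise of 2-fold lies outside the intervals of OsPYL11 and BZIP23 and inside those of ABA1, ABA8OX1 and ABA8OX2.

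**Figure D2:**
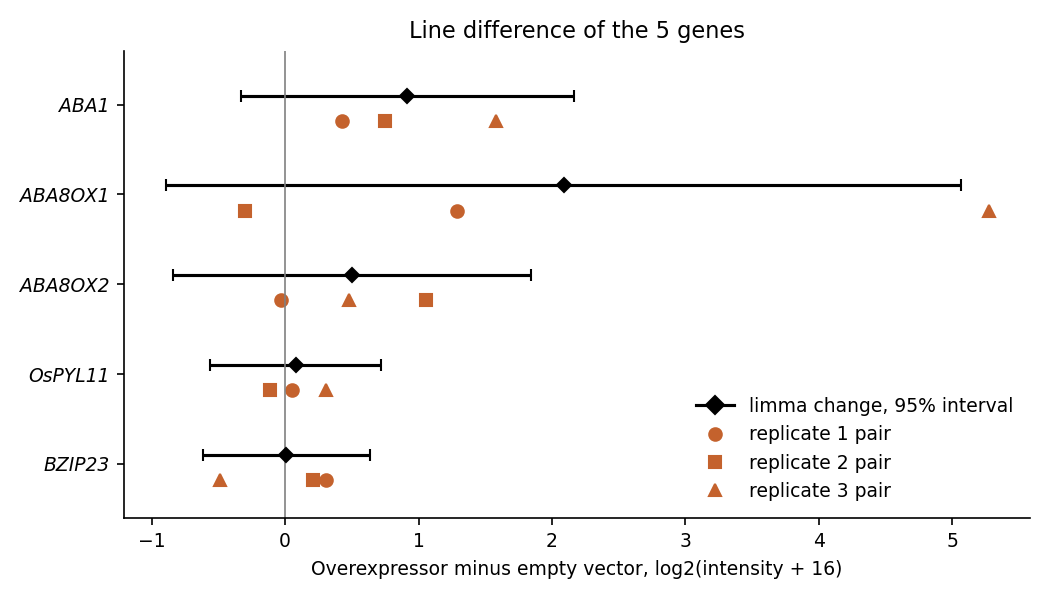
Overexpressor minus empty vector for the 5 genes on the log2(intensity + 16) scale: black diamonds and bars give the limma change with its 95% interval, orange symbols the difference within each replicate number. Every interval spans 0, the widest is that of ABA8OX1 (-0.90 to 5.07), and only for ABA1 are all 3 differences above 0.

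The replicate 2 arrays were high for most of these genes. Each replicate 2 array was set against the mean of replicates 1 and 3 of its line on the log2 scale, as a description. ABA1 departed by 1.45 in the empty vector line and 1.19 in the overexpressor, ABA8OX2 by 0.86 and 1.69, OsPYL11 by 0.53 and 0.23 and BZIP23 by 0.28 and 0.58. ABA8OX1 departed by 3.53 in the empty vector line and by -0.05 in the overexpressor. Thus 4 of 5 genes lay above in both lines, against 26.5 percent of all genes, and ABA1 alone lay over 2-fold above in both, against 2.86 percent of all genes. In the wider ABA list described next, PSY2 and RAB25 also lay over 2-fold above in both lines, and the kinase genes SAPK7 and SAPK9 over 2-fold below in both, as did 3.06 percent of all genes; these 4 are named after their values were seen. The clock genes moved with the same arrays. So did the 3 prime to 5 prime log2 ratios, which were highest on replicate 2 in both lines. For actin they were 3.08 against 1.26 and 1.24 in the empty vector line, and 1.81 against 1.65 and 1.68 in the overexpressor. For GAPDH they were 3.21 against 1.70 and 1.65, and 2.49 against 1.83 and 2.13. The summed intensity of the 4 root markers was 1664 on empty vector replicate 2 against 1111 and 1268, and 3190.3 on overexpressor replicate 2 against 782.4 and 1069. That of the 5 leaf blade markers was 138825 against 93734 and 95569, and 117022 against 64973 and 61718. The 6 flower and panicle markers summed to 6021 against 4427 and 4028, and to 6893 against 2644 and 1544, while the 6 seed markers summed to 5524 against 6648 and 7550, and to 7602 against 8278 and 6650. The root and flower sums rest largely on single genes. On overexpressor replicate 2 LSI1 gave 3052 of the root sum, and the MADS2 gene LOC4343851 gave 6631 of the flower and panicle sum. Other markers were lowest of their line on that array. The root marker IRT1 was at 73.1 against 216.1 and 165.3, and the leaf blade marker GOS5 at 12968 against 15852 and 13451. The part of these values in the departures of the 5 genes was not tested.

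**Figure D3:**
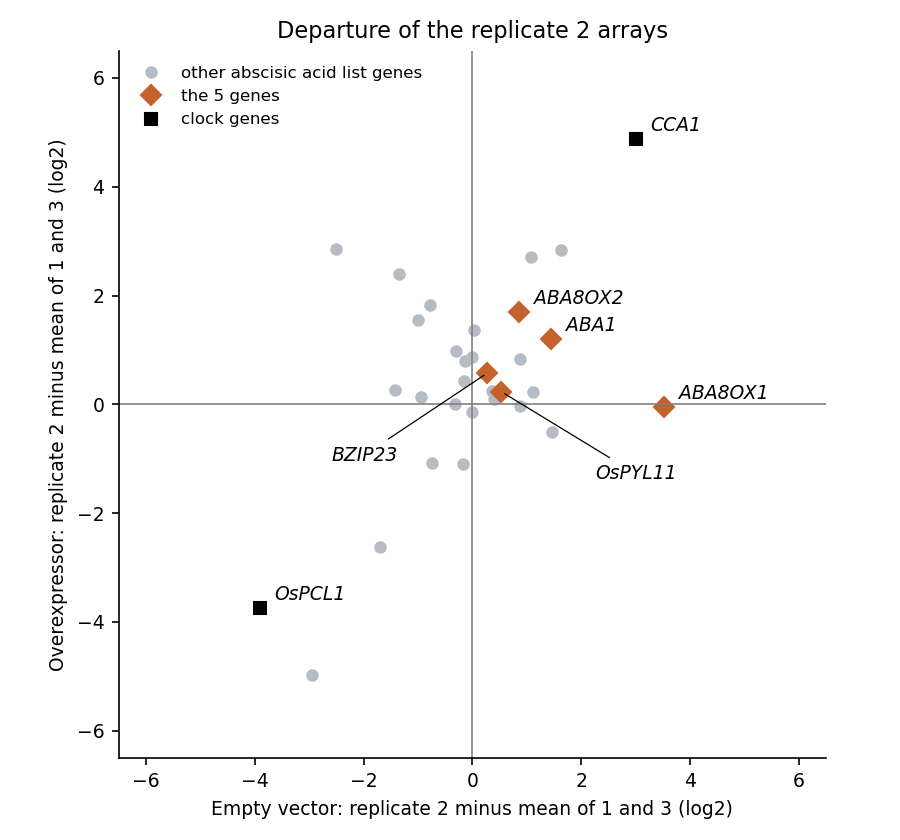
Departure of the replicate 2 array from the mean of replicates 1 and 3 on the log2 scale, in the empty vector line (horizontal) and the overexpressor (vertical); diamonds are the 5 genes, grey points the other genes of the ABA list and squares the clock genes CCA1 and OsPCL1. ABA1, ABA8OX2, OsPYL11 and BZIP23 lie above 0 on both axes. ABA8OX1 departs by 3.53 in the empty vector line and -0.05 in the overexpressor.

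A wider list of the ABA pathway set these genes among their neighbours in the route. Of 99 names of synthesis, breakdown, receptor, SnRK2 kinase, transcription factor and ABA-induced genes, 32 genes matched the gene table and 30 had a probe set. The only receptor gene among the 30 was OsPYL11. Of these 30, the 5 genes above included, 0 rose, 0 fell and 30 did not pass, where 0.318 percent of all genes rose and 0.201 percent fell; 5 had an unadjusted p under 0.05, against 14.2 percent of all genes. The median log2 change was 0.34 over the list and 0.01 over all genes tested. For 2 of the 30 the arrays of the lines did not overlap, against 21.2 percent of all genes.

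In the synthesis group of 6 genes (ABA1, MCSU3, PDS and PSY1 to PSY3), 4 changes lay above 0 and 2 below. The synthesis gene NCED3 and the breakdown gene ABA8OX3 matched but had no probe set. Other synthesis names of the list, ABA2 and AAO3 among them, matched no gene. Neither route was therefore measured in full. MCSU3, for a molybdenum cofactor sulfurase that activates the last enzyme of ABA synthesis, had the smallest p of the group. Its intensity was 928.1, 809.5 and 1075 on the empty vector arrays and 406.1, 763.1 and 353.5 on the overexpressor arrays, in order of replicate number. The overexpressor arrays all lay below the empty vector arrays, and replicate 2 was the nearest to them. The log2 change was -0.94 ± 0.32 (limma adjusted p = 0.25). With both replicate 2 arrays removed MCSU3 passed, at -1.36 ± 0.18 (limma adjusted p = 0.0488). Its other probe set was dimmer and had -0.32 ± 0.68. The phytoene synthase genes PSY1, PSY2 and PSY3, which open the carotenoid route, had -0.16, 0.79 and 0.72. PSY1 to PSY3 are named after their values were seen. None of them passed (limma adjusted p = 0.795, 0.741 and 0.46).

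Among 10 SnRK2 kinase genes, SAPK1 to SAPK10, 6 changes lay above 0 and 4 below, with a median of 0.10. SAPK2 had the smallest p, with 0.73 ± 0.48 (limma adjusted p = 0.573). Its intensity was 1753, 5521 and 2252 on the empty vector arrays and 3663, 3684 and 7468 on the overexpressor arrays. As for ABA8OX1, empty vector replicate 2 and overexpressor replicate 3 were its high arrays. Of the 3 transcription factor genes, VP1, a B3 factor of seed ABA responses, was above background on no array.

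The 8 ABA-induced target genes, for dehydrins, other LEA proteins and the lectin-like salT, all had estimated changes above 0, with a median of 1.79, and 0 passed. Of the 8, 3 were above in all 3 replicate numbers, which holds for 22.6 percent of all genes, and RAB16D was above background on no array. Dhn1, a dehydrin gene, had the smallest p. Its intensity was 1685, 3655 and 1673 on the empty vector arrays and 8073, 7832 and 5549 on the overexpressor arrays, with no overlap between the lines. The log2 change was 1.69 ± 0.35 (limma adjusted p = 0.0903), and 1.98 ± 0.22 without both replicate 2 arrays, where it passed (limma adjusted p = 0.0414). These values are of the brightest of 3 Dhn1 probe sets. The others were under background on all arrays and had 0.98 ± 0.20 and 0.40 ± 0.26. RAB21, LEA19 and RAB16B were the other 3 with an unadjusted p under 0.05. Their probe sets were above background on only 2, 1 and 1 of 3 empty vector arrays. A second RAB21 probe set, at 46.4, 161.5 and 459.8, was above background on all of these arrays. On replicate 1, where background was 45.4, it was only just above. Its log2 change was smaller, at 2.73 ± 1.09 against 4.72 ± 1.56. That probe set and the one for LEA19 are of types that can cross-hybridize. On overexpressor replicate 3, where ABA8OX1 was highest, RAB21 was at 423 and LEA19 at 143.3, against 5325 and 2829 on replicate 1 and 8008 and 4834 on replicate 2. On empty vector replicate 3 RAB21 was at 881.1, LEA19 at 179.4 and RAB16B at 118.1, so within replicate 3 the overexpressor lay below the empty vector by log2 differences of -1.03, -0.29 and -0.88. The order of the overexpressor arrays thus differed between ABA8OX1 and these target genes.

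**Figure D4:**
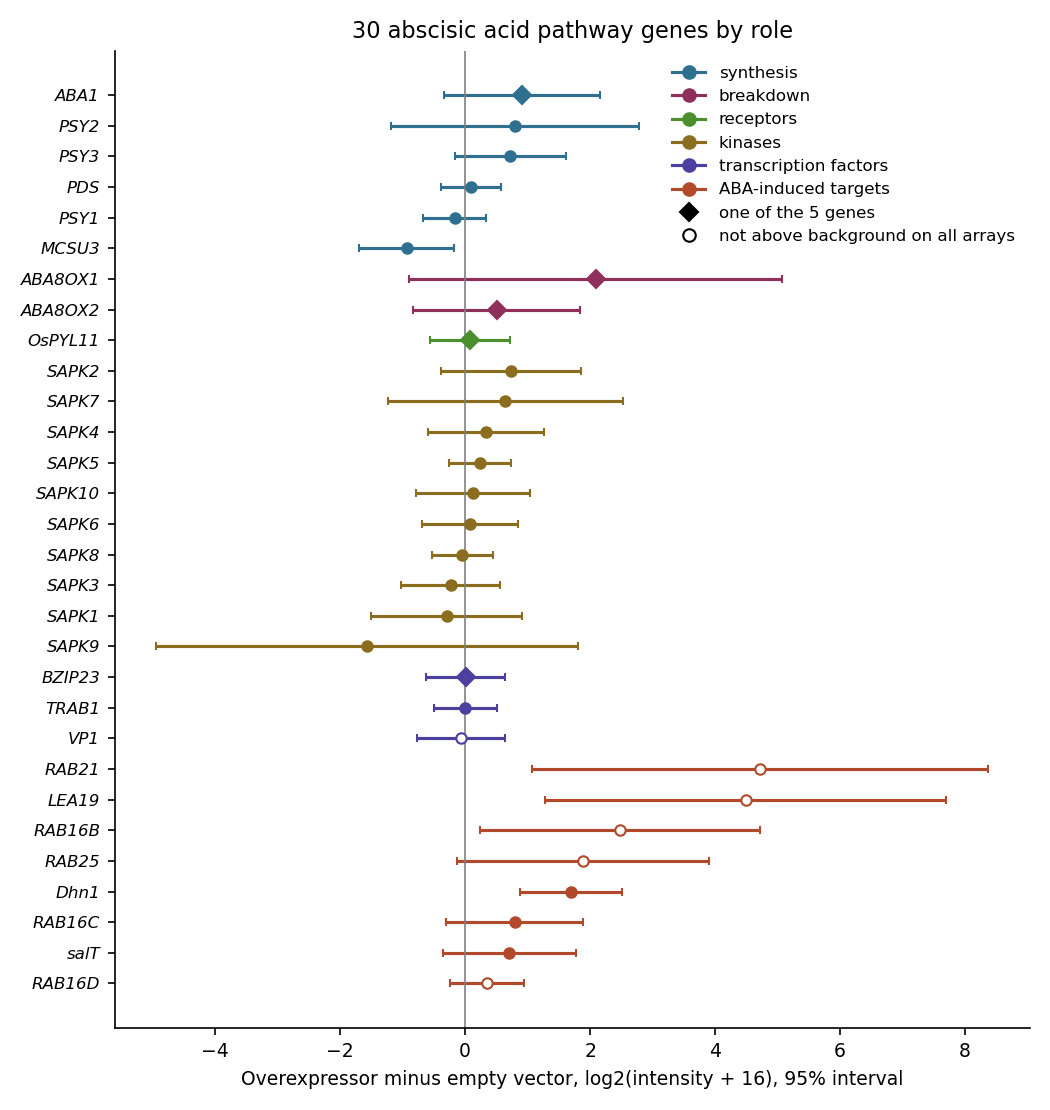
Overexpressor minus empty vector on the log2(intensity + 16) scale with the 95% interval of the limma fit for 30 ABA pathway genes grouped by role; diamonds are the 5 genes described first, and open symbols are genes not above background on all arrays. The intervals are not adjusted for the number of genes, and 0 of the 30 genes passed. The estimates of the 8 ABA-induced targets all lie above 0, as do those of 50.7 percent of all genes. Of these 8, 3 were above background on all arrays.

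Across the 6 arrays ABA1 and ABA8OX2 ran most alike among the 5 genes, with a Pearson r of 0.86 on the log2 scale, and ABA8OX1 with BZIP23 least, with -0.15. These are descriptions over 6 arrays that share lines and replicate numbers. Among 2058 named genes brighter than the median probe set, those most like ABA1 were JAZ6 (r = 0.99), for a repressor of jasmonate signalling, and the kinase genes CIPK26 (0.99) and CPK20 (0.99). JAZ6 was at 4195, 7998 and 3701 on the empty vector arrays and 4764, 9981 and 8029 on the overexpressor arrays, the same order of arrays as ABA1 but for overexpressor replicate 3, which was just above empty vector replicate 2. Those most like ABA8OX1 were ACLA-3 (0.99), for an ATP-citrate lyase subunit, OsSAP11 (0.99), for a stress-associated zinc finger protein, and the transcription factor gene OsWRKY71 (0.97). OsWRKY71 was at 1251, 2859 and 1002 on the empty vector arrays and 1445, 2011 and 4433 on the overexpressor arrays, so empty vector replicate 2 and overexpressor replicate 3 were its high arrays too.

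The genes most like ABA8OX2 were OsPP2C70 (0.97), DRB2 (0.96) and CYCD5-3 (0.96). OsPYL11 was most like OsPMEI28 (0.95), OsPRR95 (0.94) and PSS2 (0.94). OsPRR95, a pseudo-response regulator of the circadian clock, was at 3832, 23786 and 5974 on the empty vector arrays and 4766, 21600 and 14979 on the overexpressor arrays. Its replicate 2 arrays were the brightest, and overexpressor replicate 3 lay nearer to them than to the replicate 1 arrays. BZIP23 was most like RBP-P (0.94), Osr40c1 (0.93) and NIN1 (0.92), for a neutral invertase. Each r is the highest of many candidates over only 6 arrays, and none was tested.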

How the data were processed

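Biotin-labelled cRNA from 10 ug of total RNA was hybridized, per the labels' protocols. The authors deposited linear probe set intensity. With 2 percent removed at each end, the mean was 500.1 on every array, so 1 scaling factor per array had been applied; the software for summarization is not stated in these sources. At most 0.00349 percent of values were identical between arrays. The number of arrays limits the precision.

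Of 57381 probe sets, 187 controls were left out. A probe table paired 22436 with 1 gene, 95 with several and 34663 with none. Gene names were those listed for assembly ASM3414082v1. limma 3.58.1 in R 4.3.3 (lmFit, eBayes with trend, two-sided) was run on log2(intensity + 16) for all 6 arrays, and the probe set of highest mean stood for each gene. The functions were tested on simulated data.

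Groups and replicate numbers came from the titles, which the source names match. In the overexpressor samples a further label, the description, instead names the empty vector control; it was not used, so the sign of every change rests on the titles and source names. Deviations from the line means correlated at 0.209, 0.3 and 0.154 between arrays of the same number (each over 0.1, so the numbers were taken to pair the arrays) and at -0.293 to 0.181 between others. The 0.181, of empty vector replicate 3 with overexpressor replicate 1, is also over 0.1 and exceeds the 0.154 of the replicate 3 pair. The pairing of numbers 1 and 3 is therefore weakly based. With this replicate block 234 genes passed in place of 93.

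The members and lists were chosen with earlier results of these data known. Besides the members, the genes named are those of smallest p in each role, any that passed, the 3 of highest r and the clock genes. TRAB1, PDS, PSY1 to PSY3, SAPK7, SAPK9, RAB25, RAB21, LEA19, RAB16B, RAB16D and the organ markers named were chosen after their values were seen. NCED3 and ABA8OX3 are named as genes without a probe set, and ABA2 and AAO3 as names without a matched gene. Alternatives were the pseudocount, a filter on dim probe sets, scaling, the block, a batch term, array weights, probe set type and removal of arrays. Promoter motifs, planned at first, were not analysed here.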

Additional observations from a re-analysis of the deposited data

How the results depend on the processing

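Of the 5 genes 0 passed under any of the 16 alternatives, where adjusted p ranged from 0.123 to 0.999. ABA1 and ABA8OX1 kept the sign of their estimates in all 16. ABA8OX2, not measured without cross-hybridizing probe sets, turned to -0.062 without overexpressor replicate 2, and with single arrays removed it reached 1.06. OsPYL11 ranged from -0.10 to 0.28 with single arrays removed. BZIP23 ranged from -0.18 to 0.24 so, and was -0.0015 after quantile normalization, -0.093 without both replicate 2 arrays and -0.051 with array weights. VP1, under background on all arrays, went from -0.064 to 0.23 without both replicate 2 arrays and 0.088 with array weights, and ranged from -0.24 to 0.23 with single arrays removed.

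Of the 30 list genes, 2 passed without both replicate 2 arrays (Dhn1 and MCSU3). With replicate 2 as a batch term 2 passed (Dhn1 and RAB25, limma adjusted p = 0.0305 and 0.0486). With array weights 1 passed (Dhn1, limma adjusted p = 0.0321). RAB25 was at 32.2, 148.7 and 42.5 on empty vector replicates 1, 2 and 3, above background on only 2 of these arrays. The 93 genes became 169 after median centring, 234 with the replicate block (87 shared), 239 without both replicate 2 arrays (110 higher, 129 lower), 494 with the batch term, 404 with array weights and 4 to 35 with single arrays removed. The 59 probe sets became 39 with a pseudocount of 64, 135 with the filter on dim probe sets, 146 after median centring, 27 without both replicate 2 arrays, 292 with the batch term, 232 with array weights and 5 to 19 with single arrays removed. The replicate block changed no call of the 5 genes or of the list. Removal of arrays leaves fewer samples, and without both replicate 2 arrays the count of genes rose while that of probe sets fell. The cause of the shifts was not tested. With 3 arrays per line only changes large against the spread between arrays can pass.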
